A study of Homo sapiens with 4 samples.

Results

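The mitochondrial ribosomal protein genes were described across 2 single-cell transcriptome libraries of human pluripotent stem cells (hPSC) and of cells induced towards ectoderm. Genes were taken by symbol, MRPL or MRPS with a number and at most 1 letter from A to C, which gave 77 of the 60674 features in each library. By their place in the solved structure of the human mitochondrial ribosome, 51 encode proteins of the large subunit and 25 of the small subunit, and MRPS36 is not a part of the ribosome. MRPS18A and MRPS30 carry the S of the small subunit in their symbols and were counted with the large subunit. All 77 are protein-coding and nuclear, spread over 21 chromosomes, with the most on chromosome 2 (8 genes).

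Mitochondria keep a small genome of their own, and the few proteins it encodes are all subunits of the respiratory chain and the ATP synthase. They are made inside the organelle by a ribosome whose RNAs come from mitochondrial DNA and whose proteins are all encoded in the nucleus, made in the cytosol and imported. Some of these proteins have counterparts in the bacterial ribosome, and others are found only in mitochondria. Pluripotent cells rely strongly on glycolysis, and their mitochondria are known to be remodelled as they leave pluripotency.

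The cells of both groups had received the same 2 kinds of lentivirus. One carried a pooled guide RNA library, with EGFP expressed from the EF1α promoter, and a guide barcode of 22 random nt that is read in the cell's cDNA. The other carried the nuclease Cas9 with mCherry. Cells were sorted on fluorescence and recovered for 1 week. The hPSC group was 1 culture profiled under that name, and the ectoderm group was 1 culture after induction; groups follow the sample titles, since the protocol text is shared and mentions the induction for every sample. The guide pools of the cultures targeted different genes. State, guide pool and culture therefore cannot be told apart in any difference between the libraries. The labels name the established line H9 throughout, but the expression of 2 of 2 libraries did not match it, which leaves the identity of the line unsettled for every result.

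After filtering, 15326 hPSC cells with 83246015 UMIs and 16360 ectoderm cells with 91249888 UMIs were kept. A UMI is a tag that counts 1 captured RNA molecule once. Each group was 1 library, without replicates, so no test was made and no p-value is given. All intervals are 95% intervals that cover counting error only. They are exact, except those of the ratio of large to small subunit, which use a normal approximation on the log scale. Levels are given in CPM, the UMIs of a gene per 1000000 UMIs of its library. Because each molecule is tagged once at its 3′ end, CPM were not divided by gene length. The libraries differed in the direction of their names: 8 of the 9 measured neural ectoderm markers were at least 2-fold higher in ectoderm, among them SOX1 (0.637 against 43.7 CPM, hPSC first). The other marker, NES, differed little (69.2 against 68.3 CPM). Of the 10 pluripotency markers, 8 reached 20 CPM; 4 of these were at least 2-fold lower, among them NANOG (178 against 11.6 CPM), and 1 was 2-fold higher, SOX2, which is also a neural marker (236 against 516 CPM). LIN28A was higher as well (log2 ratio 0.89) and DPPA4 differed little (-0.10), so the pluripotency list was lower only in part. Markers of surface ectoderm summed to 1.68 and 1.05 CPM and those of endoderm to 0.961 and 1.19 CPM, with KRT5, TP63 and SOX17 at 0 UMIs in both. Lower sums in ectoderm were found for markers of mesoderm (36.2 and 13.8 CPM), neural crest (12.4 and 6.63 CPM) and neurons (54.8 and 26.5 CPM). In all, 78 cell barcodes occurred in both libraries.

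The genes were read in every cell. A median hPSC cell held 42 UMIs from the 77 genes (5th to 95th percentile 20 to 92) and a median ectoderm cell 32 (14 to 91), and 0 cells in either library held none. Together they made 718677 UMIs, or 0.863% of the hPSC library, and 653459 UMIs, or 0.716% of the ectoderm library.

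Promoters of genes for one complex can share short motifs, and 6 such motifs were looked for. RefSeq (GRCh38.p14) gave a promoter for 68 of the 77 genes, and the window searched ran from 250 bases before to 50 after the start, on both strands. The letters CCGGAAG, a core bound by ETS factors, were found in 28 of the 68 promoters (41.2%), against 22.3% of the 5101 promoters of genes measured at 20 CPM or more and 10.3% of all 35116 promoters. The letters AAGATGGC, a core bound by YY1, were found in 19 (27.9%), against 7.21% and 2.89%. Letters of YY1 that lay after the start were found in 15 of the 68 promoters, against 4.88% of the measured promoters; among promoters with the letters that is 15 of 19, against 249 of 368. The letters GCGCATGCG of the NRF1 palindrome were found in 3 (4.41%), close to the 4.29% of measured promoters. A GC box (GGGCGG) was found in 41 (60.3%, against 72.9%), a TATA box (TATAAA) in 2 (2.94%, against 5.0%) and the CRE palindrome TGACGTCA in 0 (against 4.04%). A match is a description of letters, and binding was not measured. 

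The windows below show 250 bases before and 30 after the start, 5′ to 3′ on the strand of the gene, with ETS and YY1 letters in capitals. MRPL51 had the highest level of all 77 genes and MRPS18A is the MRPS-named gene of the large subunit with matches to both motifs. MRPS31 and MRPS23 had the highest and the lowest ratio of the small subunit, and MRPL1 and MRPL49 those of the large subunit.
MRPL51, chr12:6493233-6493512, minus strand: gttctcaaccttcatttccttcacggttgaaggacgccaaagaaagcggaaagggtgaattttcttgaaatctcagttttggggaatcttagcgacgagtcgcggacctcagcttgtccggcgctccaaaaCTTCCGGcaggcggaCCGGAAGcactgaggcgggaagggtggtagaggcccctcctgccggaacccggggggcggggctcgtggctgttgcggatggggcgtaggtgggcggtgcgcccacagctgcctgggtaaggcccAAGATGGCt
MRPS18A, chr6:43687762-43688041, minus strand: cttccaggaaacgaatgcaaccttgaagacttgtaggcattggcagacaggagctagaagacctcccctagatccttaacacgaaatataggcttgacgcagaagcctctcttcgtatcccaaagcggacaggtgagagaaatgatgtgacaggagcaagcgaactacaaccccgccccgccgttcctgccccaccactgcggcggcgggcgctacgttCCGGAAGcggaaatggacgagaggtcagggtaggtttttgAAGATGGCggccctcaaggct
MRPS31, chr13:40771161-40771440, minus strand: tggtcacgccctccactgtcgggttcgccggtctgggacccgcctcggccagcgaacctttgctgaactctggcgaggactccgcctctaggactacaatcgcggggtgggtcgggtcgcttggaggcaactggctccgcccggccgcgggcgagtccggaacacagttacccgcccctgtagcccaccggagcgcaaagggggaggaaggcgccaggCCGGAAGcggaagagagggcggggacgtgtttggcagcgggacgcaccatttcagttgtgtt
MRPS23, chr17:57850015-57850294, minus strand: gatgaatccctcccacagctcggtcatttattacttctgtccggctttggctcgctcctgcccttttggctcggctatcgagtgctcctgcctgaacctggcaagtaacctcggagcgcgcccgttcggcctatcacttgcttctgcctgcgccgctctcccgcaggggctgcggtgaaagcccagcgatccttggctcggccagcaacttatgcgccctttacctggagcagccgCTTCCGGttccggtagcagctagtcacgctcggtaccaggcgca
MRPL1, chr4:77862580-77862859, plus strand: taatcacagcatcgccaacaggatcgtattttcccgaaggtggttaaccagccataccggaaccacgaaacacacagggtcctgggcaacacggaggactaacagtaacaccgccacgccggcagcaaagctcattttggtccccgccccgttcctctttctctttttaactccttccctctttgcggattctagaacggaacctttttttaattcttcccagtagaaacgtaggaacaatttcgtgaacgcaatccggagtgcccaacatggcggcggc
MRPL49, chr11:65121933-65122212, plus strand: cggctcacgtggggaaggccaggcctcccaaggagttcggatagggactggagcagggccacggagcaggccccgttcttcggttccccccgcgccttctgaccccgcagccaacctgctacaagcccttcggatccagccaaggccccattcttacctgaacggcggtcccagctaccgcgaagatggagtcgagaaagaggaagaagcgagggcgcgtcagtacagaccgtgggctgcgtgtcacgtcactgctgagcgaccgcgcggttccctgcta
The pair with the most extreme ratios, MRPL1 and MRPL49, held neither motif, while MRPS31 and MRPS23, at opposite ends of the small subunit, each held 1 ETS match. Over all 68 genes the median log2 ratio of ectoderm over hPSC was -0.18 with and -0.28 without the ETS letters, and -0.22 with and -0.27 without the YY1 letters.

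The first comparison set the ectoderm library against the hPSC library. The genes were lower as a group in ectoderm by a small amount that varied from gene to gene, and no single gene differed by 2-fold. Single log2 ratios ran from -0.93 to 0.92. Their summed level was 8633 CPM in hPSC and 7161 CPM in ectoderm, a log2 ratio of -0.27 (-0.27 to -0.26). The 77 genes had a median log2 ratio of -0.25, with the middle of the genes between -0.40 and -0.07. Without the 78 barcodes found in both libraries, a check chosen after seeing the data, the summed ratio was again -0.27 and the median -0.26.

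The counts lie beside those of all genes at the same level. Of the 77 genes, 71 reached 20 CPM in at least 1 library, as did 6250 genes in all. None of the 71 was at least 2-fold higher (0, against 3.25% of all genes) or at least 2-fold lower (0, against 4.03%) in ectoderm. By a smaller size, a log2 ratio of at least 0.32 in either direction, 28 were lower (24.3% of all genes were) and 1 was higher (19.9% of all genes were). In either direction that is 29 of 71, where 44.2% of all genes passed the same size, so the share that differed was close to that of all genes, and nearly all of it lay in the lower direction. Of these 29, MRPL49 and MRPS28 reached 20 CPM only in hPSC and MRPL1 only in ectoderm, each in the library where it was higher. Below 0 lay 59 of the 71 ratios (53.7% of all genes) and above 0 lay 12 (46.3%). The counting interval lay wholly below 0 for 57 (47.4% of all genes) and wholly above for 10 (41.0%). The median over all 6250 genes was -0.03, with quartiles at -0.31 and 0.25. The lower quartile of the 71 genes, -0.41, was thus near that of all genes, whereas their upper quartile was -0.10.

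**Figure D1:**
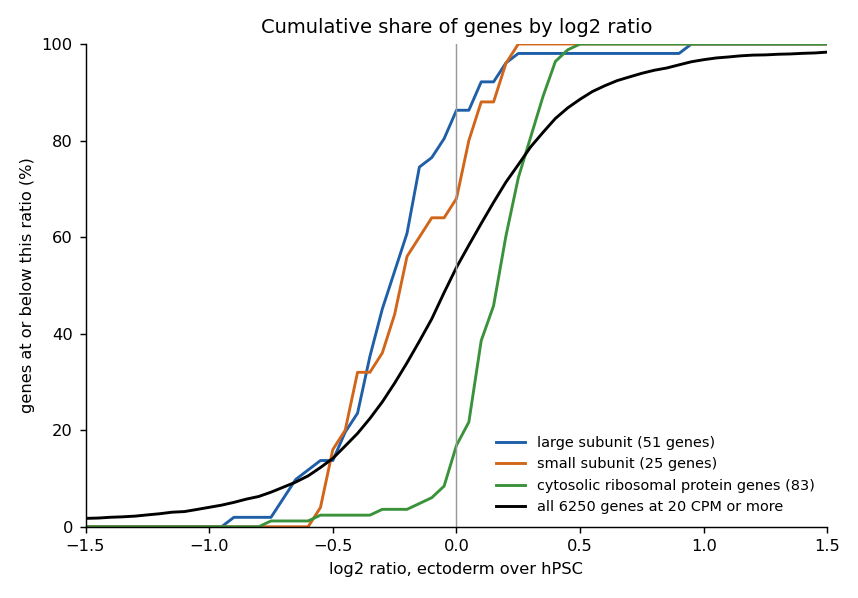
Cumulative share of genes (%, vertical axis) at or below each log2 ratio of ectoderm over hPSC (horizontal axis), for the large subunit, the small subunit, the cytosolic ribosomal protein genes and all 6250 genes at 20 CPM or more. The subunit curves hold all 51 and 25 genes, also those under 20 CPM, and the other 2 curves only genes at 20 CPM or more. At a log2 ratio of 0 the curves of the large and small subunit have reached 86.3% and 68.0%, against 53.7% for all genes and 16.9% for the cytosolic genes.

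Over all cells, the large and the small subunit were lower by nearly the same amount. The 51 large-subunit genes summed to 5644 CPM in hPSC and 4650 CPM in ectoderm (log2 ratio -0.28, -0.29 to -0.27; median -0.27). The 25 small-subunit genes summed to 2939 and 2466 CPM (-0.25, -0.26 to -0.24; median -0.24). Large-subunit UMIs were 1.92 times those of the small subunit in hPSC and 1.89 times in ectoderm, a difference of -0.03 on the log2 scale (-0.04 to -0.02). Among non-targeting cells only, the subunits lay further apart, with medians of -0.27 and -0.10 and a difference of -0.08 between the summed ratios. By the smaller rule of size 20 of the 47 large-subunit genes at 20 CPM were lower and 1 higher. Of the 23 small-subunit genes at 20 CPM, 8 were lower and 0 higher. Among all genes at that level 24.3% were lower and 19.9% higher. Ratios above 0, at any level, were found for 7 of 51 and 8 of 25 (46.3% of all genes at 20 CPM). Counting subunits by the letter in the symbol gave medians of -0.27 and -0.23.

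Within each subunit, genes classed as having a bacterial counterpart and genes classed as mitochondria-specific differed in opposite order. MRPS18A and MRPS18B were put in the mitochondria-specific class although they are related to a bacterial protein. In the large subunit the 29 genes with a bacterial counterpart had a summed log2 ratio of -0.31 (-0.32 to -0.30) and the 22 mitochondria-specific genes -0.24 (-0.25 to -0.23). In the small subunit the 15 genes with a bacterial counterpart had -0.19 (-0.20 to -0.18) and the 10 mitochondria-specific genes -0.36 (-0.37 to -0.35). The medians were -0.30 and -0.20 in the large subunit and -0.22 and -0.27 in the small subunit, so the gap in the small subunit was narrower by the median. These sums rest on few highly counted genes, such as MRPS26 and MRPS34 among the mitochondria-specific genes of the small subunit.

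**Figure D2:**
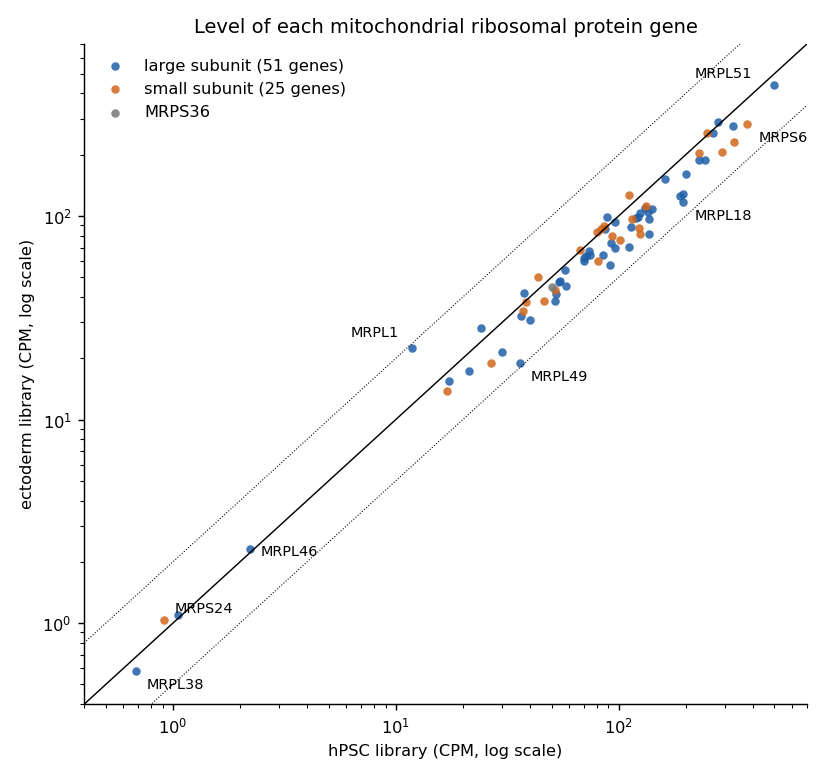
Level of each of the 77 genes in CPM in the hPSC library (horizontal axis, log scale) and in the ectoderm library (vertical axis, log scale), with 1 point per gene coloured by subunit, the solid line at equal levels and dotted lines at 2-fold. Points lie mostly just under the solid line, from MRPL38 at 0.685 and 0.581 CPM to MRPL51 at 500.4 and 438 CPM, and none lies outside the dotted lines.

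Levels of single genes covered almost 3 orders of magnitude. MRPL51, a mitochondria-specific protein of the large subunit, gave 500.4 CPM in the hPSC library and 438 CPM in the ectoderm library (log2 ratio -0.19, -0.21 to -0.17). MRPS6, the small-subunit counterpart of a bacterial protein, stood at 378 and 283 CPM (-0.42, -0.44 to -0.39), and it shares 32693 bases with SLC5A3 on the same strand (40.0 and 51.8 CPM). MRPL11, a protein of the base of the stalk to which translation factors bind, stood at 328 and 277 CPM (-0.24, -0.27 to -0.22). MRPS26 stood at 329 and 230.1 CPM (-0.51, -0.54 to -0.49). MRPL20, an RNA-binding protein of the large subunit, stood at 280.3 and 290.3 CPM (0.05, 0.03 to 0.08), and MRPS21 at 250.3 and 257 CPM (0.04, 0.01 to 0.06). Thus MRPL20 and MRPS21 stood slightly higher in ectoderm and the other 4 abundant genes stood lower. By level, MRPL11 and MRPS26 did not differ in hPSC beyond their counting intervals.

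A group of 4 genes was scarcely read, although each encodes a subunit of the same ribosome. MRPL38 had 57 UMIs in hPSC and 53 in ectoderm, MRPS24 had 76 and 94, MRPL53 had 88 and 100, and MRPL46 had 185 and 211. All 4 were under 5 CPM, and their intervals held 0. All 4 overlap another annotated gene on the same strand, among them the readthrough gene URGCP-MRPS24, as did 19 of the other 73 genes; reads that fit more than 1 gene can be dropped in counting, and their part here was not tested. MRPS17, the next lowest of the small subunit, stood at 17.0 and 13.8 CPM (-0.30, -0.41 to -0.19), and it shares 4683 bases with NIPSNAP2 on the same strand.

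MRPL1 (ENSG00000169288, chromosome 4, 77862520 to 77952790 on GRCh38, plus strand, GENCODE v29) was the 1 gene that met the smaller rule of size upwards. It encodes the protein of the mobile L1 stalk, which handles the tRNA leaving the ribosome. It had 983 UMIs in hPSC and 2044 in ectoderm, or 11.8 and 22.4 CPM (log2 ratio 0.92, 0.81 to 1.03), and it reached 20 CPM only in ectoderm. Among cells with a non-targeting guide alone, which carry the same kind of guide in both libraries, it had 12 and 24 UMIs (1.29, 0.24 to 2.43). The next highest of the large subunit were MRPL30 (24.2 and 28.3 CPM, 0.23, 0.14 to 0.31), MRPS18A (37.7 and 42.0 CPM, 0.16, 0.09 to 0.22) and MRPL33 (88.6 and 98.6 CPM, 0.15, 0.11 to 0.20). Their intervals did not meet that of MRPL1. In the small subunit the highest were MRPS31 (43.3 and 50.3 CPM, 0.22, 0.15 to 0.28) and MRPS14 (112 and 127 CPM, 0.18, 0.14 to 0.22), followed by MRPS33 (0.06), MRPS10 (0.06) and MRPS18C (0.04), whose interval of -0.005 to 0.09 held 0. In non-targeting cells MRPL30 (34 and 27 UMIs) and MRPS33 (97 and 77 UMIs) both had -0.04, with intervals that hold 0. MRPS14 shares 927 bases with CACYBP on the opposite strand, which stood at 198 and 133 CPM, and MRPS31 has a pseudogene copy, MRPS31P5, with 3.70% as many UMIs.

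At the other end lay genes of the large subunit. MRPL49 (ENSG00000149792, chromosome 11, 65122183 to 65127371, plus strand), which is specific to mitochondria, had 3002 UMIs in hPSC and 1725 in ectoderm, or 36.1 and 18.9 CPM (-0.93, -1.02 to -0.85). Its 5′ end overlaps FAU by 291 bases on the opposite strand, a gene that encodes a cytosolic ribosomal protein, at 1501 and 1728 CPM. SYVN1 (12.3 and 10.5 CPM) is annotated across MRPL49 on the opposite strand, and the strand setting of the counting is not given in the sources used here. In non-targeting cells MRPL49 had 36 and 25 UMIs (-0.23, -1.03 to 0.54), an interval that holds both 0 and the value of all cells. MRPL18, a protein of the central protuberance, stood at 195 and 117 CPM (-0.74, -0.78 to -0.71). MRPL3, which lines the region of the peptidyl transferase centre, stood at 137 and 82.0 CPM (-0.74, -0.79 to -0.70). MRPL36 (91.8 and 57.4 CPM, -0.68, -0.73 to -0.63) and MRPL32 (111 and 70.6 CPM, -0.65, -0.70 to -0.61), a protein that must be cut by a mitochondrial protease to mature, came next. In non-targeting cells MRPL18 (245 and 111 UMIs), MRPL3 (157 and 77), MRPL36 (115 and 53) and MRPL32 (133 and 57) had ratios of -0.85, -0.73, -0.82 and -0.93, all with intervals below 0.

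In the small subunit the lowest ratios were those of MRPS23 (124 and 81.9 CPM, -0.60, -0.64 to -0.56), MRPS26 (above), MRPS28 (26.8 and 18.9 CPM, -0.50, -0.59 to -0.41), MRPS5 (124 and 87.2 CPM, -0.50, -0.54 to -0.46) and MRPS34 (292 and 207 CPM, -0.50, -0.52 to -0.47). The intervals of the last 4 overlap, so their order is not settled by the counts. That of MRPS28 also meets the interval of MRPS23, so the order of MRPS23 and MRPS28 is not settled either. MRPS23, MRPS26 and MRPS34 are specific to mitochondria.

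**Figure D3:**
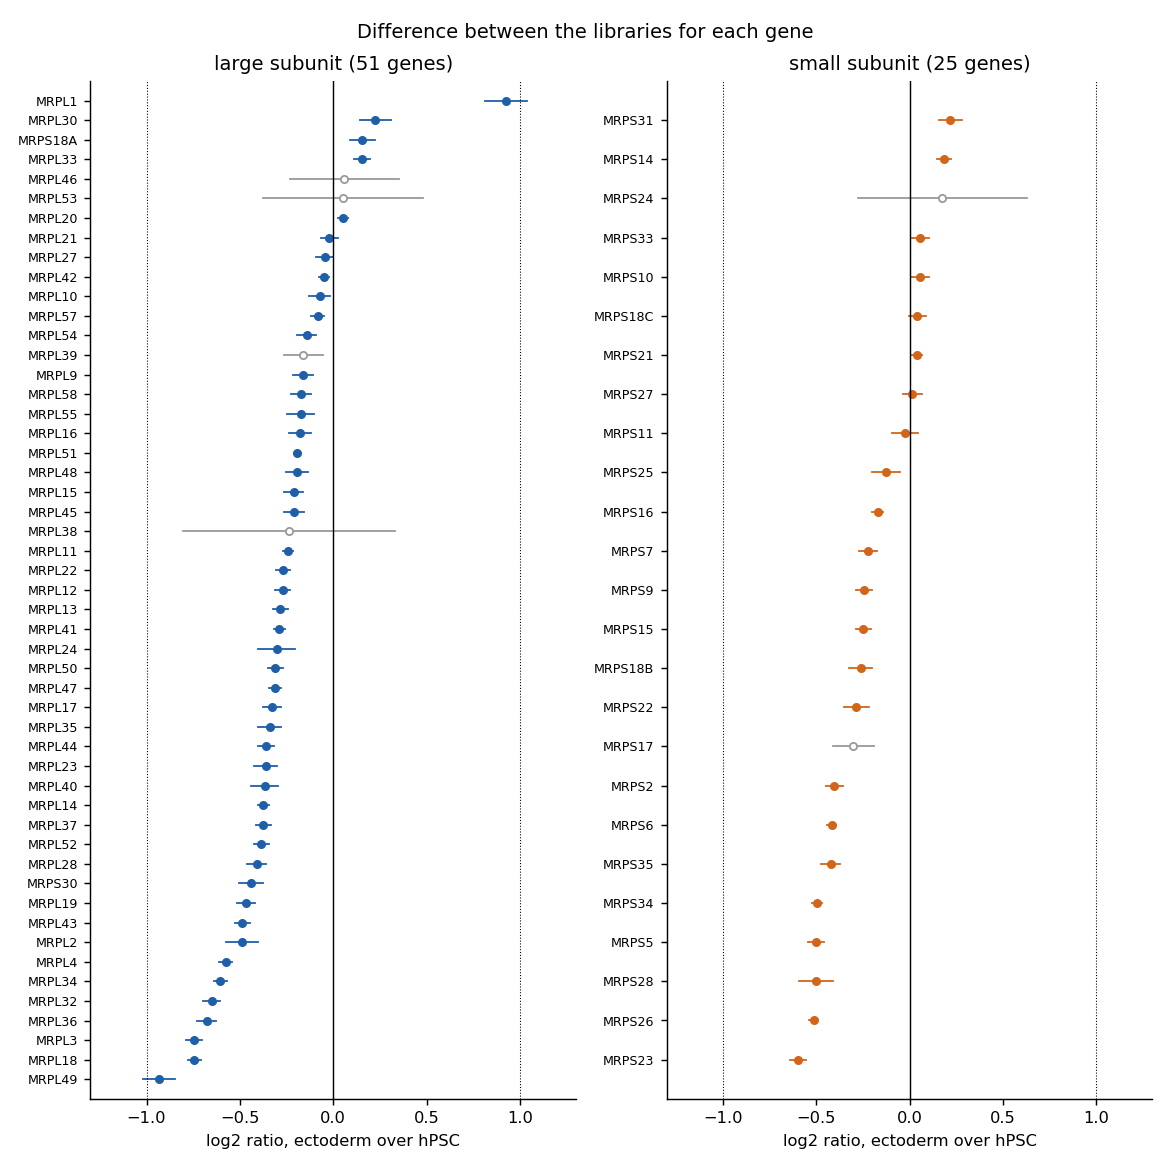
Log2 ratio of ectoderm over hPSC (horizontal axis) for each gene of the large subunit (left) and the small subunit (right), with exact 95% intervals for counting error as bars; open grey points are genes under 20 CPM in both libraries and dotted lines mark 2-fold. MRPL1 at 0.92 and MRPL49 at -0.93 stand apart from the rest, and the small-subunit genes run from 0.22 (MRPS31) to -0.60 (MRPS23).

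The MRPS18 genes are 3 relatives of the same bacterial protein that sit at different places of the ribosome. Only MRPS18C was classed above as the bacterial counterpart. MRPS18A, in the large subunit, was higher in ectoderm (0.16), MRPS18C did not differ beyond its interval (83.5 and 85.9 CPM), and MRPS18B was lower (52.0 and 43.3 CPM, -0.26, -0.32 to -0.20). The ratios of MRPS18A and MRPS18B thus lay on different sides of 0 over all cells, with intervals that do not meet. In non-targeting cells both ratios lay above 0: MRPS18A had 45 and 51 UMIs (0.48, -0.13 to 1.09) and MRPS18B 62 and 56 (0.15, -0.40 to 0.69). Each interval holds both 0 and the gene's value over all cells, so these few counts neither show nor exclude the difference in sign. MRPS18B shares 904 bases with PPP1R10 on the opposite strand (80.9 and 49.9 CPM). MRPS30, a large-subunit protein in spite of its symbol, stood at 51.7 and 38.1 CPM (-0.44, -0.51 to -0.38). MRPS36, which encodes a subunit of the alpha-ketoglutarate dehydrogenase complex, stood at 50.2 and 44.8 CPM (-0.16, -0.23 to -0.10), and in non-targeting cells it had 44 and 48 UMIs (0.42, -0.20 to 1.04).

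Copies of the genes and overlapping neighbours were counted. Of 76 pseudogene copies of 35 of the genes, 40 had 0 UMIs in both libraries, and all 76 together had 567 UMIs in hPSC and 707 in ectoderm. Only MRPL45P2 (5.24% of the UMIs of MRPL45), MRPS31P5, MRPL40P1 (1.13%) and MRPL53P1 (1.06%) passed 1% of their parent gene. How the authors' counting split reads between near-identical copies is not given in the sources used here, so these 4 genes are uncertain to that extent. Another gene at 5 CPM or more overlaps 26 of the 77 genes, 20 on the opposite strand and 6 on the same strand. How far such neighbours added to or took from the counts was not tested.

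Other genes of mitochondrial translation were set beside them. Of 5 further subunits of the ribosome with other symbols, 2 were lower by the smaller rule of size and 0 higher (24.3% and 19.9% of all genes), with a median log2 ratio of -0.25. They ran from PTCD3, a small-subunit protein with RNA-binding repeats (84.9 and 90.9 CPM, 0.10), to AURKAIP1 (305 and 218 CPM, -0.49). The 14 translation factors at 5 CPM had a median of -0.25. Of the 10 at 20 CPM, 3 were lower and 0 higher by the rule (24.3% and 19.9% of all genes). Among the 10, the elongation factor TUFM was lowest (183 and 121 CPM, -0.59) and OXA1L, which inserts new proteins into the inner membrane, highest (76.4 and 89.4 CPM, 0.23). The 18 mitochondrial tRNA synthetases at 5 CPM had a median of -0.14. Of the 6 at 20 CPM, 3 were lower and 0 higher by the rule (24.3% and 19.9% of all genes), from YARS2 (-0.62) to RARS2 (0.21). Under 20 CPM the range was wider, from MARS2 (17.1 and 6.30 CPM, -1.44) to AARS2 (5.43 and 8.26 CPM, 0.61).

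The 21 factors that help build the ribosome and were measured at 5 CPM had a median of -0.07, which was -0.28 among non-targeting cells only. Of the 11 at 20 CPM, 2 were higher and 4 lower by the smaller rule of size (19.9% and 24.3% of all genes). MPV17L2, an inner-membrane protein needed for assembly, was the 1 of these 11 that was 2-fold lower (23.3 and 9.80 CPM, -1.25). It reached 20 CPM only in hPSC, and so was among the 11 only through the library where it was higher. MTERF4, which recruits an RNA methyltransferase to the large subunit, was the highest of the 11 (25.7 and 36.6 CPM, 0.51). METTL15, under 20 CPM, stood at 10.8 and 17.6 CPM (0.70). The 11 genes of mitochondrial DNA upkeep and transcription had a median of -0.25. Of the 5 at 20 CPM, 2 were lower and 0 higher by the smaller rule (24.3% and 19.9% of all genes). Those 5 ran from TOP1MT (-0.41) to TFAM (0.10), the factor that packs mitochondrial DNA. Under 20 CPM, TWNK was lower still (19.5 and 12.2 CPM, -0.68). 

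The products of the mitochondrial genome were lower by more. The 13 mRNAs summed to 39355 CPM in hPSC and 29713 CPM in ectoderm (log2 ratio -0.41, median of 12 measured -0.46), from MT-ND3 (-0.08) to MT-ND6 (-1.41). The 2 ribosomal RNAs, which carry the RNA core of the same ribosome, had ratios of -0.74 (MT-RNR2) and -0.87 (MT-RNR1); a poly(A)-primed library reads such RNAs only in part. The cytosolic ribosomal protein genes went the other way in sign, with a median of 0.18 over 83 measured genes and 69 above 0 (46.3% of all genes). By the smaller rule of size only 13 of these 83 genes were higher and 3 lower, against 19.9% and 24.3% of all genes. They make a large share of the library, and with the mitochondrially encoded and the cytosolic ribosomal protein genes both left out of the total, the median of the 77 genes was -0.21 and that of all genes 0.01.

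A further comparison asked whether the genes differed between cells with more and less mitochondrially encoded RNA within a library. Cells were ordered by the mitochondrially encoded share of their UMIs and divided into 5 bins of 3065 or 3066 cells in hPSC and 3272 in ectoderm, and levels were taken per 1000000 nuclear-encoded UMIs. In hPSC the median share ran from 2.23% in the lowest to 6.68% in the highest bin by construction, and the summed level of the 77 genes was 9258, 9080, 8979, 8936 and 8839 from the lowest to the highest. In ectoderm, with shares from 1.65% to 5.32%, it was 7595, 7456, 7310, 7309 and 7247. The log2 ratio of highest over lowest bin was -0.07 in both libraries (-0.08 to -0.06 in each). All genes at 20 CPM had medians of 0.05 in both. Of the members at 20 CPM, 13 of 71 in hPSC and 13 of 68 in ectoderm lay above 0, against 61.8% and 63.7% of all genes. The genes were therefore slightly lower, not higher, in cells with more mitochondrially encoded RNA, and the step between the libraries was larger than the spread over bins. The ratio of large to small subunit differed by -0.004 (-0.03 to 0.02) and 0.02 (-0.01 to 0.04), both intervals holding 0. Median UMIs per cell ranged from 4663 to 4988 over the hPSC bins and from 5046 in the lowest to 3942 in the highest ectoderm bin, and the part of depth was not tested.

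**Figure D4:**
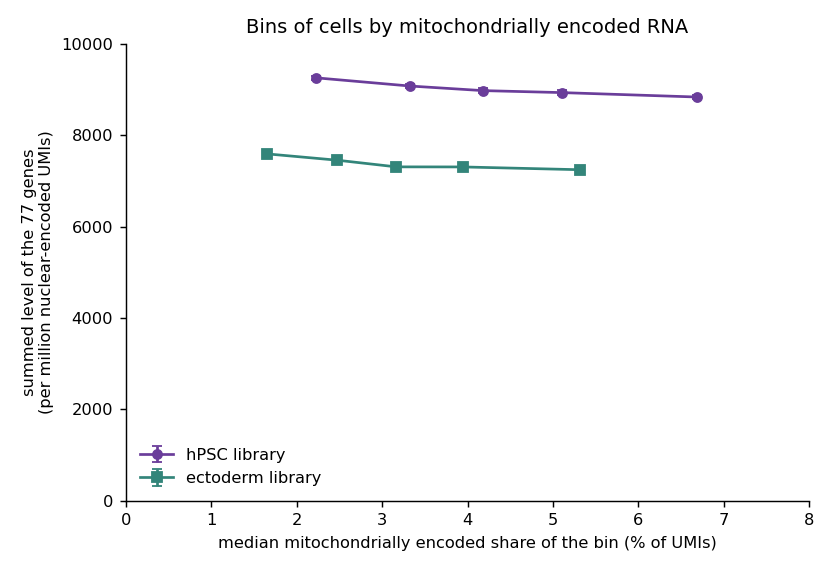
Summed level of the 77 genes per 1000000 nuclear-encoded UMIs (vertical axis, from 0) in 5 bins of cells ordered by the mitochondrially encoded share of UMIs (horizontal axis, median of each bin in %), with exact Poisson 95% intervals as bars that are mostly smaller than the points. The hPSC bins run from 9258 to 8839 and the ectoderm bins from 7595 to 7247, so that every hPSC bin lies above every ectoderm bin.

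The guides gave a view of single genes. Cells were assigned to a guide when exactly 1 guide had 20 or more amplicon UMIs, which held for 2915 hPSC cells (212 with non-targeting guides) and 3686 ectoderm cells (159). The ectoderm pool targeted 6 of the 77 genes, all of the large subunit, and the hPSC pool 0. Cas9 cuts can leave an altered mRNA that is still counted, so the level of a targeted gene need not change. In cells with its guides, MRPL14 had 44 UMIs in 37 cells (interval 32.0 to 59.1), where the level in all other assigned cells predicted 44.2. MRPL11 had 42 in 24 cells (30.3 to 56.8, predicted 38.6), MRPL34 had 29 in 32 cells (19.4 to 41.6, predicted 28.8), and MRPL33 had 16 in 21 cells (9.15 to 26.0, predicted 13.1). MRPL3 had 13 in 38 cells (6.92 to 22.2, predicted 15.97), and MRPL46 had 0 in 31 cells, where 0.399 was predicted and a count of 0 allows up to 3. All 6 intervals held the prediction. Together there were 144 UMIs (121 to 170) against 141 predicted, a ratio of 1.02 (0.861 to 1.202), which leaves room for changes of the pooled mRNA within these bounds.

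Single guides of a gene varied with few cells behind each. For MRPL3, guide 2 gave 11 UMIs in 24 cells (9.53 predicted), guide 3 gave 0 in 6 (3.18 predicted) and guide 4 gave 2 in 8 (3.26 predicted). For MRPL11, guide 1 gave 15 UMIs in 3 cells (6.54 predicted), while guide 4 gave 11 in 11 cells (14.9 predicted). Guides to the same gene share a target and are not replicates of a condition.

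**Figure D5:**
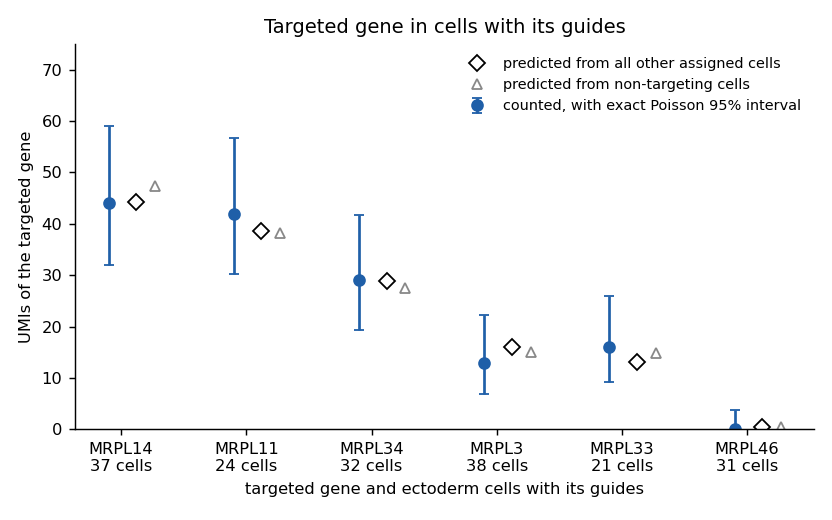
UMIs of each targeted gene (vertical axis) in ectoderm cells assigned to its guides (horizontal axis, with the number of cells), with exact Poisson 95% intervals, beside the number predicted from all other assigned cells (diamonds) and from non-targeting cells (triangles). Every interval holds the diamond, from MRPL14 (44 counted, 44.2 predicted) to MRPL46 (0 counted, 0.399 predicted).

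The rest of the ribosome was read in the same 183 cells. The 71 genes that no guide targeted summed to 6363 CPM. The 159 non-targeting cells gave 6632 CPM for them (ratio on the log2 scale -0.06, -0.11 to -0.01), and every other assigned cell together 6448 CPM (-0.02, -0.05 to 0.01). The 45 untargeted large-subunit genes had -0.01 (-0.07 to 0.05) against non-targeting cells and 0.02 (-0.02 to 0.06) against the others. The 25 small-subunit genes had -0.14 (-0.21 to -0.06) and -0.08 (-0.14 to -0.02), both intervals below 0. The mitochondrially encoded mRNAs had -0.09 (-0.11 to -0.06) and -0.04 (-0.06 to -0.03). Ectoderm targets unrelated to the ribosome, with at least 50 cells each, were set against the same 159 cells. Over them the small subunit ran from -0.15 (PCCA) to 0.01 (MDC1). Their mitochondrially encoded mRNAs ran from -0.25 (TP53I11) to 0.07 (ACAD8). The values of the 183 cells against non-targeting cells lay within both ranges. For the small subunit, only PCCA (50 cells, -0.26 to -0.03) lay lower than the 183 cells, and GLA came next at -0.11. No such range was taken for the small subunit against all other assigned cells. These cells are of 1 library, and no replicate culture stands behind the differences.

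Other targets related to the ribosome had too few UMIs to judge their own gene. MRRF, the ribosome recycling factor, had 1 UMI in 25 cells (interval 0.025 to 5.57) where 2.97 were predicted, and NSUN4, the methyltransferase that MTERF4 recruits, had 4 in 68 cells (2.97 predicted). PDF, which removes the formyl group from new mitochondrial proteins, had 0 in 120 cells (0.229 predicted), and TSFM, an elongation factor, 0 in 17 (0.029 predicted). The 77 genes summed to 7352 CPM in PDF cells (-0.01 against non-targeting cells), 7311 in NSUN4 cells (-0.02), 7364 in MRRF cells (-0.01) and 6985 in TSFM cells (-0.09, -0.21 to 0.03).

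Over all targets with at least 50 cells, the summed level of the 77 genes hardly differed between targets. In hPSC, 8 targets ran from -0.02 (PGLS) to 0.06 (COA3) against non-targeting cells, and 0 of 8 intervals lay off 0. In ectoderm, 27 targets ran from -0.09 (DNASE2, then DHRS4 and NUP98 at -0.08) to 0.05 (MDC1, then THOC3 at 0.02 and MANF at 0.01). There, 24 of 27 lay below 0 and 7 intervals did so wholly, but all share the same 159 non-targeting cells. Against all other assigned cells 0 intervals lay below 0 and 3 above. The spread over targets in either library was thus smaller than the difference of -0.27 between the libraries.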

How the data were processed

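The deposited values are UMI counts of each gene in each cell, for which the submitters' processing notes name STAR, STARsolo and GRCh38 (versions, gene annotation and strandedness: not given in the sources used here). Deposited amplicon tables list 1 read per line with the guide matched by the authors, with counts of mismatches. Read 1 has 28 bases (16 of cell barcode, then 12 used as UMI), more than the chemistry named in the labels gives, and the hPSC table, with 1048575 reads, may be part of a longer one.

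Cells were kept with at least 1000 UMIs, 500 genes and at most 20% mitochondrially encoded UMIs, which removed 7 of 15333 hPSC and 0 of 16360 ectoderm barcodes; no doublet caller was run. Counts were summed over kept cells and scaled to CPM. Log2 ratios have exact conditional binomial intervals (scipy 1.17.1), and sums have exact Poisson intervals. The binomial intervals were tested on simulated Poisson counts with set fold changes. Those counts held no variation between cells or cultures, so the test covers counting error only. Differences in the ratio of large to small subunit have intervals by a normal approximation on the log scale. A rule of size replaced a test: 20 CPM or more in at least 1 library, with a log2 ratio of 1 or, for the smaller rule, 0.32 in size. Lists are given as medians over genes at 5 CPM or more. Named genes are, in each subunit, the 5 highest and 5 lowest ratios at 20 CPM, the 3 highest and 2 lowest levels, the MRPS18 genes, MRPS30, MRPS36 and guide targets; from each list and library of targets, the ends. Other genes named were chosen after their values were seen. Members and lists were chosen with earlier results of these data known, and subunits were assigned from published nomenclature. A further gene of the family is not reported here. Alternatives included edgeR 4.0.16 TMM factors.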

Additional observations from a re-analysis of the deposited data

How the results depend on the processing

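With 1 library per group, no result could be checked by leaving out a replicate. No paired analysis was possible because each group had 1 library. The summed ratio of the 77 genes (-0.27) was -0.29 with mitochondrially encoded genes left out of the total, -0.23 with the cytosolic ribosomal protein genes left out as well, -0.23 with TMM factors and -0.23 with median-ratio factors. The large-subunit median was -0.23 with TMM factors. The median of all genes ran from -0.05 to 0.01 over the settings, and the median of the 77 genes minus it from -0.23 to -0.21.

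Among non-targeting cells only (212 hPSC and 159 ectoderm cells), the summed ratio was -0.20, the small-subunit median -0.10 and the large to small ratio -0.080. There, 9 genes were higher and 25 lower by at least 0.32 (log2), against 1 and 28 in all cells. MRPL1 was 2-fold higher there, against 0 genes in all cells. The share of all genes that passed these sizes in non-targeting cells was not counted, so these counts have no background beside them. Below 0 lay 53 of the 77 genes there, against 53.4% of all genes at 20 CPM. Of the 77 genes, 60 kept their sign in these cells and 10 stayed within their interval from all cells. That interval rests on many more UMIs, so a value outside it can still lie within the counting error of these few cells. MRPL30, MRPL46, MRPL53, MRPS18B, MRPS33 and MRPS36 were among those that turned. Of the 29 genes that met the smaller rule of size, 27 kept their sign. MRPL35 (55 and 46 UMIs, 0.04 against -0.34) and MRPS35 (82 and 86 UMIs, 0.36 against -0.42) did not. Their intervals in non-targeting cells, -0.56 to 0.63 and -0.09 to 0.82, both held 0. In the other settings run over both libraries, all 29 genes kept their sign. Within libraries, 2 bins in place of 5 gave -0.040 in hPSC and -0.042 in ectoderm, and cells between the quartiles of UMIs per cell gave -0.053 in ectoderm. With all other assigned cells as reference, 0 ectoderm targets had intervals wholly below 0 and 3 wholly above. The cause of these shifts was not tested. At 10 amplicon UMIs per guide, targeted genes had 119 UMIs against 136 predicted, a ratio of 0.875, within the interval of the main value. At 20 amplicon UMIs, with non-targeting cells as reference (added after seeing the data), the ratio was 1.01. Depth limits the genes under 5 CPM, single genes among non-targeting cells and all values from single guides.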

Other observations

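Although nearly all of the 77 genes encode parts of 1 particle, their UMI levels were far from equal within a library. In hPSC the median gene stood at 87.2 CPM and the range ran from 0.685 to 500.4 CPM, and in ectoderm the median was 74.0 CPM and the range 0.581 to 438 CPM. MRPS30-DT, the divergent transcript beside MRPS30, had 283 UMIs in hPSC and 419 in ectoderm, while MRPS30 itself had 4303 and 3476. MRPL20-AS1, on the other strand of MRPL20, had 716 and 735 UMIs. The 2 genes overlap by 139 bases. Where strand is not known to have been used in counting, reads within such an overlap cannot be told apart from those of the gene.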
